A study of Mus musculus with 8 samples.

Results

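Cadherins, protocadherins, plakophilins, integrin chains, connexins and claudins were followed in sorted spermatogonia labelled control or Kdm1a knockout. Kdm1a encodes a histone H3 lysine demethylase. Members were taken by gene symbol: all Cdh, Pcdh, integrin alpha and beta, connexin, claudin, desmoglein, desmocollin and plakophilin symbols, without Cdh1 and Itga6. The symbols matched 71 of the 17589 genes in the table, and 33 of these had a mean of at least 1 FPKM (a unit that divides fragments by transcript length and library total) over the 8 libraries. These 33 were 6 cadherins, 3 protocadherins, 2 plakophilins, 8 integrin alpha chains, 5 genes with an integrin beta symbol, 5 connexins and 4 claudins. Itgb1bp1 and Itgb3bp encode proteins named for binding integrin tails and are not chains, and the gene listed as Cldn25 is Cldnd1, a claudin domain gene, in GENCODE M21. The members just inside the minimum were Cdh4 and Pcdh19, both at 1.09 FPKM, and those just outside were Itgb1bp2 at 0.963 and Cldn26 at 0.955 FPKM.

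The cells were GFP-positive spermatogonia of C57BL/6 mice, sorted from dispersed testes 6 days after birth, and 4 libraries were labelled control and 4 KDM1A KO. The GOF/deltaPE-Oct4/GFP transgene, in which a distal Oct4 element drives GFP, was the sorting reporter of both groups. The labels' protocols write Kdm1a-cKO for the knockout, with the Cre driver and the controls' full genotype not given in the sources used here. No label says that each library came from an animal of its own, so the p-values reflect the spread of these 8 libraries, part or all of which could be technical.

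Cadherins join neighbouring cells by binding their like across the gap, and catenins tie their tails to actin. Plakophilins belong to the plaque of desmosomes, which anchor keratin and other intermediate filaments. Integrins pair an alpha with a beta chain and hold cells to matrix proteins such as laminin, fibronectin and collagen. Connexins form the channels of gap junctions, and claudins seal tight junctions. In the testis, junctions between Sertoli cells form the blood-testis barrier, and spermatogonia sit on the basement membrane through integrins.

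Kdm1a itself stood at 53.7, 54.0, 92.0 and 48.1 FPKM in control replicates 1 to 4 and at 14.2, 14.1, 17.3 and 14.9 in the knockouts, 4.10-fold lower (log2 change -1.92, limma adjusted p = 6.88e-05). Inferred from the steps between low values, control libraries held 60700000 to 67000000 fragments and knockout libraries 45500000 to 62950000. Knockout replicate 2 stood apart, with 1642 transcript entries listed at 0 against 506 to 734 in the other libraries. Germ cell markers were all at 1 FPKM or more and summed to 1158 to 1351 FPKM in control libraries and 1165 to 1407 in knockout libraries. Within that sum Zbtb16 fell from 61.2 to 22.3 FPKM, Nanos3 from 18.4 to 8.02 and Nanos2 from 6.15 to 3.33, while Tex101 rose from 102 to 165 (limma adjusted p from 0.00089 to 0.045), and the other 6 were not called. The Sertoli cell list (13 genes) summed to 79.4 to 137 FPKM in control libraries and 177 to 216 in knockout libraries, but without Ctsl and Krt18, which both rose, the sums overlapped (24.5 to 76.2 and 33.1 to 94.3). That overlap came from control replicate 1 at 76.2 FPKM, as the other controls summed to 24.5 to 32.9. Each of the 11 genes left had a higher mean in the knockouts, though none of those tested was called. Sox9 and Fshr, with means of 0.642 and 0.267 FPKM, were not tested. Endothelial markers summed to 22.2 to 32.8 and 28.1 to 41.8 FPKM and went opposite ways: Pecam1 rose from 1.39 to 4.55, Tek from 1.05 to 4.13 and Flt1 from 2.05 to 3.03, and Plvap fell from 6.47 to 0.870. The 2 erythroid markers differed, Alas2 at 0.289 and 1.65 FPKM and Hbb-b1 at 0.268 and 0.234 in control and knockout. Leydig, myoid and macrophage markers overlapped between the groups, but only 2 of 8 Leydig and 2 of 10 macrophage genes had deposited values. What these markers contributed to the values of the junction genes was not tested, except where a value is given beside a gene.

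Of the 33 members, 17 rose in the knockout, 4 fell and 12 were not called, in limma on log2(FPKM + 1) with Benjamini-Hochberg adjustment over all 13483 genes tested. Over all those genes, 25.3% rose, 12.1% fell and 37.5% were called in either direction. The split depended on scaling: 3417 genes rose and 1635 fell as deposited, 2633 and 2448 with median-ratio scaling, 2655 and 2648 with quantile normalization, 2241 and 1800 after small RNAs were taken out, and 9549 and 151 when library totals were made equal. In the same order the members split into 12 rises and 4 falls, 12 and 5, 12 and 4, and 25 and 3. The small RNA entry Mir5105 alone held 61.3% to 77.1% of the FPKM total in control libraries and 29.4% to 52.7% in knockout libraries. Making totals equal scales on that entry together with all others. The median log2 change was 0.40 for the members and 0.09 for all genes tested. The knockout and control values did not overlap for 17 members, against 38.6% of all genes. In 13 of these the knockouts were above (26.1% of all genes) and in 4 below (12.5%). A group mean lay under 1 FPKM in 9 of the 33 (6 rises and 3 falls). These passed the minimum through their higher group and had to differ, so nothing is read from their calls being many. Cdh4, Cdh17, Gjb1, Gjb2, Itga1, Itga9 and Itgal are in that set and did not overlap between the groups. The counts of members without overlap and the members' median log2 change carry the same limit. Of the 24 members with both means at or above the minimum, 11 rose, 1 fell and 12 were not called. Of all 12779 genes under the same condition, 23.7% rose and 11.8% fell.

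**Figure D1:**
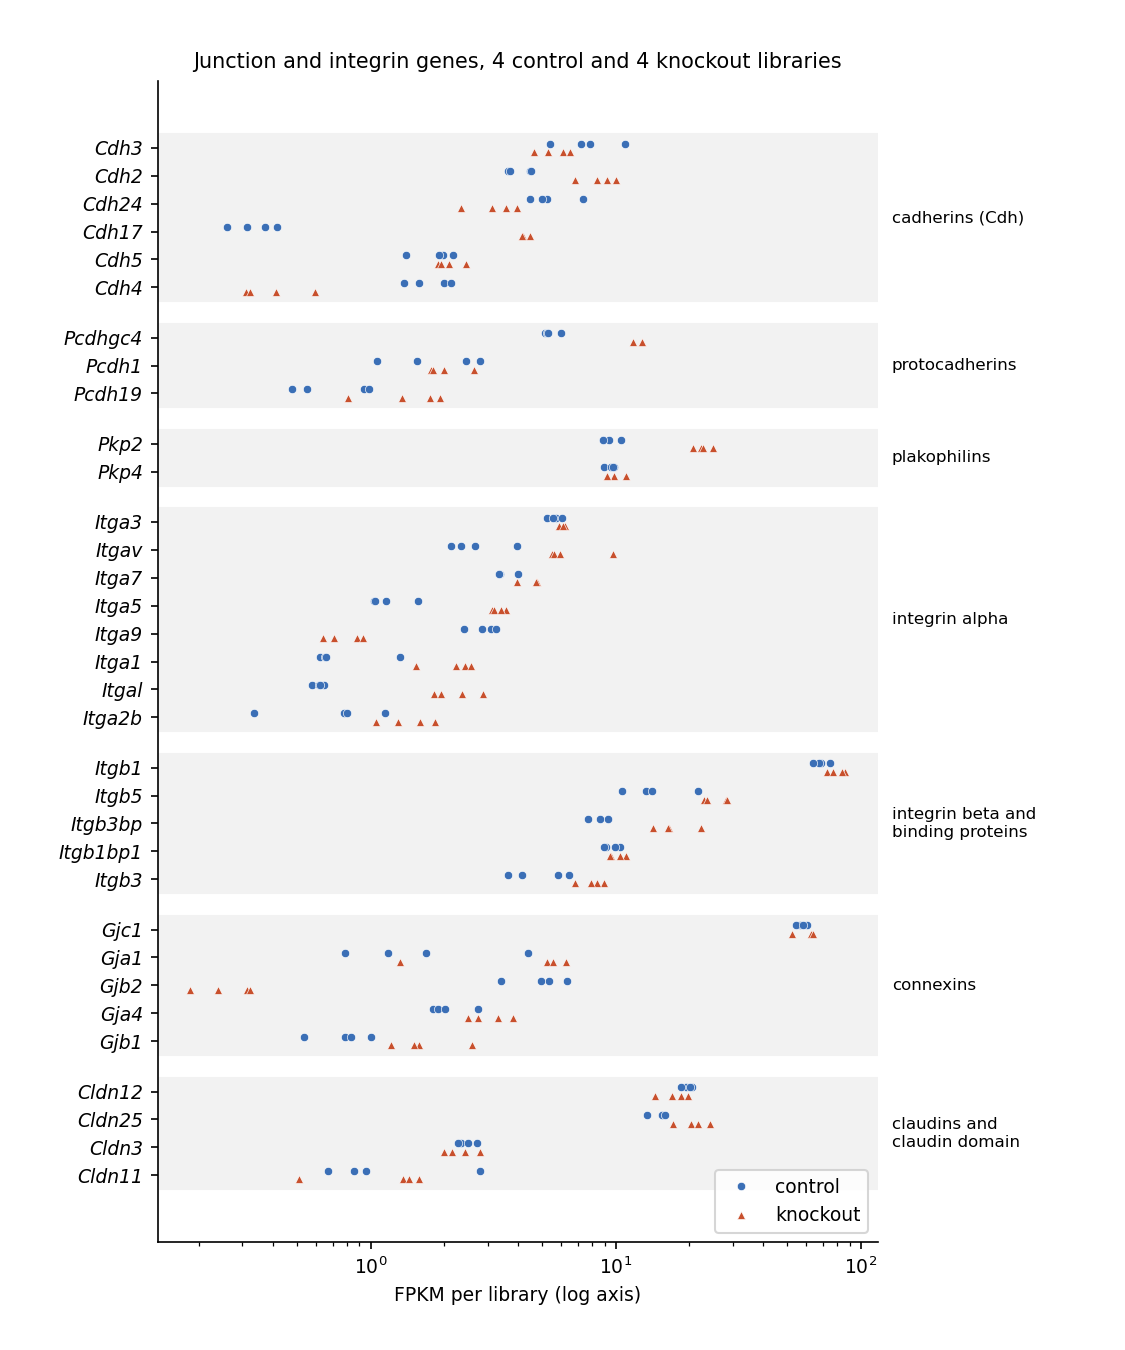
FPKM of the 33 members in each library, on a log axis, grouped by junction type; circles are the 4 controls and triangles the 4 knockouts. Cdh17 and Gjb2 show the widest gaps between the groups, in opposite directions, while Itgb1 and Gjc1 are the highest members in both groups and overlap.

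**Figure D2:**
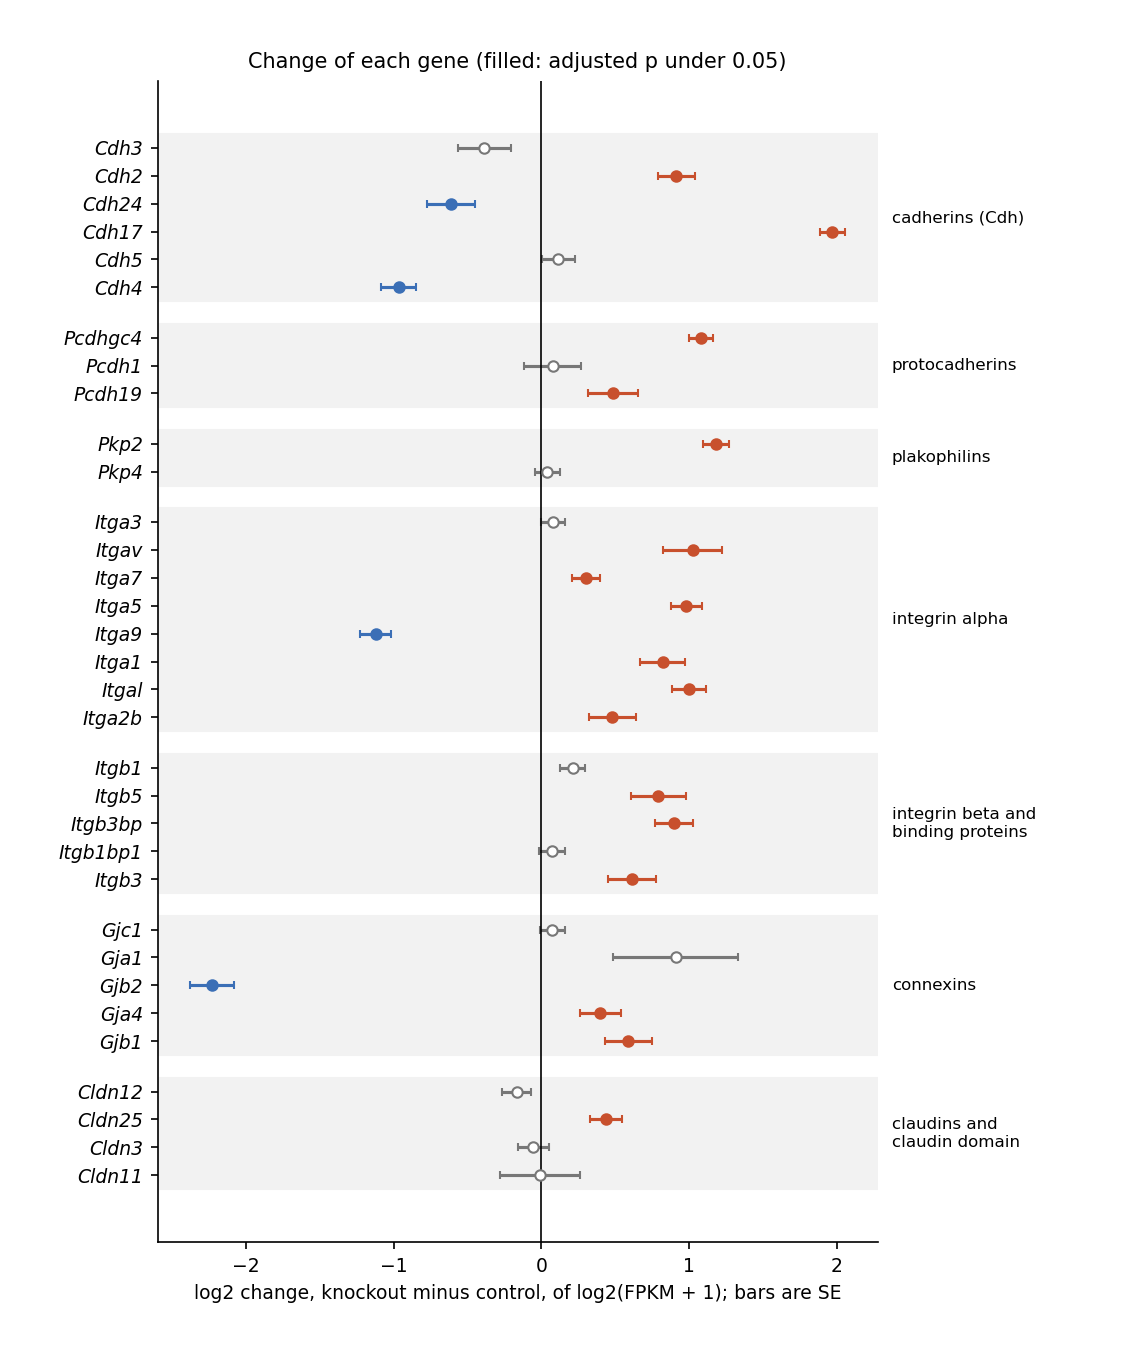
Log2 change of each member, knockout minus control, on the log2(FPKM + 1) scale with its standard error from limma; filled points have an adjusted p under 0.05. Of the 33 points, 17 are filled to the right of 0 and 4 to the left.

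Among the integrins, 8 of the 11 chains rose, 1 fell and 2 were not called, against 25.3% and 12.1% of all genes. The rises of Itga1, Itgal and Itga2b and the fall of Itga9 belong to chains with a group mean under 1 FPKM, which had to differ. Of the 7 chains with both means at or above it, 5 rose, 0 fell and 2 were not called, where 23.7% and 11.8% of all such genes rose and fell. Itgb1, the beta chain shared by most laminin, collagen and fibronectin receptors, was the highest member in every library. It read 68.6, 67.8, 63.9 and 74.8 FPKM in the controls and 72.7, 86.0, 76.9 and 83.4 in the knockouts. The groups overlapped, and the gene was not called (log2 change 0.21, SE 0.08, limma adjusted p = 0.0737). Its transcript entries moved in opposite directions. The protein-coding entry read 47.0, 46.0, 40.3 and 52.6 FPKM in the controls and 59.3, 76.7, 62.6 and 66.7 in the knockouts. It rose from 46.5 ± 5.02 to 66.3 ± 7.55 FPKM (SD, n = 4; log2 change 0.50, limma adjusted p = 0.0156 over 26612 entries, of which 18.0% were called). The other entry, which GENCODE marks as a target of nonsense-mediated decay, read 21.6, 21.7, 23.6 and 22.2 FPKM in the controls and 13.4, 9.37, 14.3 and 16.8 in the knockouts. It fell from 22.3 ± 0.905 to 13.5 ± 3.08 FPKM (SD, n = 4; log2 change -0.71, limma adjusted p = 0.0147). Neither entry overlapped between the groups, and the decay target made up 29.7% to 36.9% of the gene's FPKM in the controls and 10.9% to 20.1% in knockout libraries. Cufflinks divides fragments between entries that share exons, so each entry's value is less certain than their sum.

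Itgb5 and Itgb3, the beta chains that pair with the alpha V chain to bind vitronectin and similar proteins, both rose. Itgb5 read 13.2, 10.6, 14.0 and 21.6 FPKM in the controls and 22.8, 28.2, 23.6 and 28.4 in the knockouts, so that every knockout was above every control. Its mean was 14.9 ± 4.74 FPKM in the controls and 25.8 ± 2.94 in the knockouts, 1.73-fold higher (log2 change 0.79, SE 0.19, limma adjusted p = 0.00902). Itgb3 read 4.14, 3.64, 5.80 and 6.43 FPKM against 8.99, 8.40, 6.81 and 7.94, again without overlap (1.61-fold, log2 change 0.61, limma adjusted p = 0.0154). Itgav, their alpha partner, read 2.13, 2.66, 2.33 and 3.95 FPKM in the controls and 5.50, 9.79, 5.61 and 5.95 in the knockouts. It rose 2.42-fold (log2 change 1.02, SE 0.20, limma adjusted p = 0.0034), and the 9.79 of knockout replicate 2 was far above the other knockouts. Without that library the log2 change was 0.85 (adjusted p = 0.00232). In the most abundant Itgav entry alone the log2 change was 0.41 and was not called (adjusted p = 0.31). All 3 chains of these vitronectin receptors were therefore higher as genes.

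**Figure D3:**
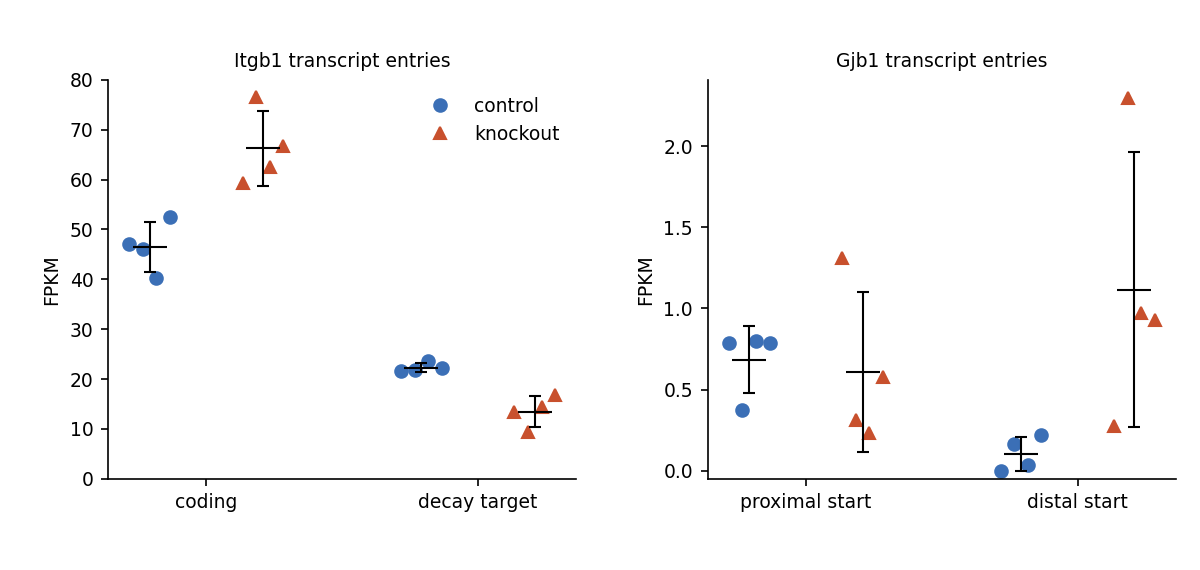
FPKM of the 2 Itgb1 entries (left) and of the 2 Gjb1 entries (right) in each library; circles are controls, triangles knockouts, and the bars are the mean and SD of 4 libraries. The coding Itgb1 entry is higher and the decay target lower in every knockout. The distal-start Gjb1 entry is above all controls in every knockout, by a narrow margin in the lowest knockout.

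Itga5, the alpha chain of the main fibronectin receptor, read 1.15, 1.55, 1.03 and 1.04 FPKM in the controls and 3.12, 3.56, 3.18 and 3.42 in the knockouts. The groups were well apart, and Itga5 rose 2.77-fold (log2 change 0.98, SE 0.10, limma adjusted p = 0.000117). Itga1, an alpha chain of collagen receptors, read 0.622, 0.653, 1.31 and 0.657 FPKM against 2.24, 1.54, 2.43 and 2.56. It rose 2.70-fold (log2 change 0.82, limma adjusted p = 0.00289), although control replicate 3 came close to the lowest knockout. Itga7, an alpha chain of laminin receptors, read 3.98, 3.38, 3.33 and 3.35 FPKM against 3.97, 4.77, 4.79 and 4.73. Its rise was 1.30-fold with overlapping groups (log2 change 0.30, limma adjusted p = 0.0338), and leaving out control replicate 2, 3 or 4, or knockout replicate 3 or 4, ended the call (adjusted p from 0.0731 to 0.0941). Itga3, the other laminin chain kept here, held 5.63 ± 0.332 FPKM in the controls and 6.00 ± 0.162 in the knockouts (SD, n = 4) and was not called.

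Itga9, which pairs with the beta 1 chain and binds tenascin, was the integrin chain that fell. Its values were 2.41, 3.10, 2.85 and 3.24 FPKM in the controls and 0.878, 0.711, 0.933 and 0.638 in the knockouts. The lowest control was above the highest knockout, a 3.67-fold lower mean (log2 change -1.12, SE 0.11, limma adjusted p = 6.26e-05). The sum holds 3 entries, each with a mean under 1 FPKM and not tested alone. The coding entries of 7020 and 1935 bases went from 0.628 to 0.225 and from 1.30 to 0.495 FPKM. A 650-base entry marked as a processed transcript went from 0.971 to 0.0701. Itga9 lies on chromosome 9 from 118606690 to 118901003, plus strand, in mm10.

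The alpha chains best known from blood cells rose from low levels. Itgal, the leukocyte chain that pairs with Itgb2, read 0.576, 0.646, 0.616 and 0.619 FPKM in the controls and 1.82, 1.93, 2.88 and 2.35 in the knockouts. No knockout came near the controls (3.66-fold, log2 change 0.996, SE 0.12, limma adjusted p = 0.000208). Its partner Itgb2, below the minimum and picked out with its values known, held 0.359 ± 0.116 FPKM in the controls and 0.349 ± 0.197 in the knockouts (SD, n = 4; limma adjusted p = 0.906 with no minimum). Macrophage markers summed to 1.99 to 2.75 FPKM in control libraries and 1.67 to 3.49 in knockout libraries. Only 2 of the 10 listed macrophage genes had deposited values, too few to judge how much leukocyte RNA was present. Itga2b, the platelet chain that pairs with Itgb3, read 0.334, 1.14, 0.781 and 0.802 FPKM against 1.05, 1.82, 1.60 and 1.29. Its rise was 1.89-fold with overlapping groups (log2 change 0.48, limma adjusted p = 0.0412). Itga2b lost its call without any of control replicates 1, 3 and 4 or knockout replicates 2, 3 and 4 (adjusted p from 0.0649 to 0.0979).

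Of the 2 binding proteins, Itgb3bp, which is also a centromere protein, was higher and Itgb1bp1 was not called. Itgb3bp read 9.34, 7.69, 8.61 and 9.28 FPKM in the controls and 14.2, 22.2, 16.5 and 16.3 in the knockouts (1.98-fold, log2 change 0.90, limma adjusted p = 0.000761). Of its sum, 74.8% was an entry that GENCODE marks as a processed transcript, and 14.5% a protein-coding entry. The former went from 6.51 to 13.0 FPKM and the latter from 1.27 to 2.50 (limma entry adjusted p = 0.00633 and 0.0073). Exons of Itgb3bp overlap those of Pgm1 on the opposite strand, which had a mean of 49.9 FPKM. The labels leave unsaid whether the authors' values used strand. Itgb1bp1 held 9.58 ± 0.670 and 10.1 ± 0.734 FPKM (SD, n = 4) and overlaps Cpsf3 in the same way.

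Of the 6 cadherins, 2 rose, 2 fell and 2 were not called, where 25.3% and 12.1% of all genes rose and fell. Cdh17 and Cdh4 had a group mean under 1 FPKM and had to differ, so nothing is read from the count. Cdh17, a cadherin known from liver and intestine, read 0.414, 0.371, 0.260 and 0.313 FPKM in the controls and 4.13, 4.18, 4.48 and 4.15 in the knockouts. Every library of a group lay close to the others of that group, and the mean rose 12.5-fold, from 0.340 ± 0.0671 to 4.24 ± 0.166 FPKM (SD, n = 4; log2 change 1.97, SE 0.09, limma adjusted p = 4.09e-06). Its share of the summed FPKM of the 6 cadherins was 1.26% to 1.96% in control libraries and 15.3% to 19.9% in knockout libraries. Cdh17 lies on chromosome 4 from 11758147 to 11817895, plus strand, in mm10.

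Cdh2, or N-cadherin, which is found on both spermatogonia and Sertoli cells, read 4.48, 4.52, 3.64 and 3.71 FPKM in the controls and 9.22, 6.82, 8.35 and 10.0 in the knockouts. It rose 2.11-fold without overlap (log2 change 0.91, SE 0.13, limma adjusted p = 0.000547). Among the 6 cadherins kept here, which leave out Cdh1, Cdh2 was the highest in every knockout. In the controls Cdh3, or P-cadherin, had the highest mean of the 6. Cdh3 read 7.21, 5.40, 7.85 and 10.9 FPKM in the controls and 6.10, 5.28, 4.62 and 6.53 in the knockouts. These values overlapped, and Cdh3 was not called (log2 change -0.39, limma adjusted p = 0.122), though it was without control replicate 2 (adjusted p = 0.0378).

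Cdh4, or R-cadherin, read 1.58, 1.36, 2.00 and 2.12 FPKM in the controls and 0.310, 0.322, 0.413 and 0.596 in the knockouts. It fell to a 4.31-fold lower mean without overlap (log2 change -0.97, SE 0.12, limma adjusted p = 0.000313). Cdh24 read 5.24, 7.35, 4.99 and 4.46 FPKM against 3.14, 2.35, 3.58 and 3.95, a 1.69-fold lower mean without overlap (log2 change -0.61, SE 0.16, limma adjusted p = 0.0166). When all libraries were scaled to equal FPKM totals, which moved the median of all genes to 0.74, the log2 change of Cdh24 was -0.03 (adjusted p = 0.91). Cdh5, the endothelial cadherin, held 1.86 ± 0.324 FPKM in the controls and 2.08 ± 0.254 in the knockouts (SD, n = 4; log2 change 0.11, limma adjusted p = 0.461).

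Protocadherins are cadherin relatives known for giving neurons a surface identity. The gene listed as Pcdhgc4 gathers 7 entries of the gamma protocadherin cluster, whose transcripts join a variable exon of their own to shared constant exons, so the sum stands for the cluster and not for a single isoform. It read 5.97, 5.13, 5.25 and 5.29 FPKM in the controls and 12.8, 11.8, 12.8 and 12.8 in the knockouts. The gap was wide against the spread in either group, and the sum rose 2.32-fold (log2 change 1.08, SE 0.08, limma adjusted p = 1.99e-05). The Pcdhgc3 entry, which made up 61.2% of the sum, went from 3.53 to 7.46 FPKM (entry adjusted p = 0.0016), and the Pcdhga12 entry from 0.853 to 2.38 (entry adjusted p = 0.0036).

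Pcdh19, an X-linked protocadherin, read 0.941, 0.983, 0.478 and 0.548 FPKM against 1.91, 0.812, 1.34 and 1.74. Its rise, 1.97-fold with overlapping groups, was near the limit of the test (limma adjusted p = 0.0488) and was lost when any library but knockout replicate 2 was left out (adjusted p from 0.0536 to 0.125). Pcdh1 held 1.96 ± 0.802 and 2.05 ± 0.413 FPKM (SD, n = 4) and was not called.

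Pkp2, the plakophilin best known from heart desmosomes, read 10.5, 8.84, 9.42 and 8.90 FPKM in the controls and 22.2, 25.0, 22.7 and 20.6 in the knockouts. It rose 2.41-fold, from 9.42 ± 0.774 to 22.6 ± 1.83 FPKM (SD, n = 4; log2 change 1.18, SE 0.09, limma adjusted p = 1.99e-05). Pkp4, a relative found mainly at adherens junctions, read 9.85, 8.97, 9.56 and 9.71 FPKM against 9.85, 11.04, 9.19 and 9.23 and was not called (log2 change 0.04, limma adjusted p = 0.75). The 2 plakophilins were near the same level per length in the controls, where Pkp2 was 47.8% to 51.6% of their sum, and Pkp2 was 69.1% to 71.2% in knockout libraries. Desmosomes also need desmoglein and desmocollin cadherins, and no such gene reached 1 FPKM. The desmoglein Dsg2, below the minimum, held 0.0921 ± 0.0336 FPKM in the controls and 0.246 ± 0.132 in the knockouts (SD, n = 4).

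Of the 5 connexins, Gjb1 and Gja4 rose, Gjb2 fell, and Gjc1 and Gja1 were not called, where 25.3% and 12.1% of all genes rose and fell. Gjb1 and Gjb2 had a group mean under 1 FPKM and had to differ, so nothing is read from the count. Gjb2, the connexin best known from the inner ear, read 4.98, 3.41, 5.34 and 6.33 FPKM in the controls and 0.239, 0.313, 0.323 and 0.184 in the knockouts. The lowest control was far above the highest knockout, and the mean fell from 5.02 ± 1.22 to 0.265 ± 0.0658 FPKM (SD, n = 4), 18.9-fold lower (log2 change -2.23, SE 0.15, limma adjusted p = 1.49e-05). Gjb2 made up 5.09% to 9.18% of the summed connexin FPKM in the controls and 0.25% to 0.44% in knockout libraries. It lies on chromosome 14 from 57098600 to 57104702, minus strand, in mm10, between 2 other connexin genes. Those neighbours were below the minimum, and were picked out with their values known. Gjb6, from 57123303 to 57133611, fell from 0.306 ± 0.0448 to 0.0600 ± 0.0363 FPKM (SD, n = 4; limma adjusted p = 0.00175 with no minimum). Gja3, from 57034460 to 57058100, held 0.983 ± 0.199 and 0.840 ± 0.326 FPKM (SD, n = 4; limma adjusted p = 0.521 with no minimum).

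Gjb1, a connexin known from liver and from the myelin of peripheral nerve, has a proximal and a distal start, and both have entries in the table. As a gene it read 0.784, 0.535, 0.831 and 1.005 FPKM in the controls and 1.58, 2.60, 1.21 and 1.50 in the knockouts, all above the controls (2.19-fold, log2 change 0.59, SE 0.16, limma adjusted p = 0.0168). The entry from the distal start read 0.000214, 0.162, 0.0323 and 0.221 FPKM in the controls and 0.272, 2.29, 0.971 and 0.926 in the knockouts. The entry from the proximal start read 0.784, 0.373, 0.798 and 0.784 FPKM against 1.31, 0.310, 0.235 and 0.578. The distal entry was thus higher in every knockout than in any control, while the proximal entry overlapped. The distal margin was narrow, with a lowest knockout value of 0.272 and a highest control value of 0.221 FPKM. As a share of the gene's FPKM, the distal entry overlapped between the groups. That share was 0.03% to 30.3% in control libraries and 17.2% to 88.1% in knockout libraries. Whether the starts were used differently was not tested. Both entries had a mean under 1 FPKM and were not tested, and the split of fragments between them is Cufflinks' estimate.

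The 250 bases upstream of the start of Gjb2 and of both starts of Gjb1 are shown because Gjb2 had the largest fall of the 33 members and the Gjb1 starts differed in their values. They are RefSeq promoter sequences of GRCm38.p6 (the mm10 build), read 5′ to 3′ in the direction of transcription. The RefSeq starts lie 0, 2 and 4 bases from the GENCODE starts of the deposited entries. Capitals mark the GC box GGGCGG, the letters bound by SP1-type factors, and the E-box CAGGTG, on either strand.
Gjb2, chr14:57104703-57104952, minus strand: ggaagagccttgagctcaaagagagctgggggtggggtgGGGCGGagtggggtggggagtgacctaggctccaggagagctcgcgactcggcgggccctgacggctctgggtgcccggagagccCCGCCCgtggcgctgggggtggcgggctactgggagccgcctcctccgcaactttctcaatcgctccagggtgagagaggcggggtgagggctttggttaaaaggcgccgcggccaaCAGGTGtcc
Gjb1 distal start, chrX:101376126-101376375, plus strand: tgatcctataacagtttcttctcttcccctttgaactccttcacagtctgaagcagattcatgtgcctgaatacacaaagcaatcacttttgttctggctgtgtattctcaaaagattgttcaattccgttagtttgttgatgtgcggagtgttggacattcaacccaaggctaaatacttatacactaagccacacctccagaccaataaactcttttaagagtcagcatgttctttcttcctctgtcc
Gjb1 proximal start, chrX:101383482-101383731, plus strand: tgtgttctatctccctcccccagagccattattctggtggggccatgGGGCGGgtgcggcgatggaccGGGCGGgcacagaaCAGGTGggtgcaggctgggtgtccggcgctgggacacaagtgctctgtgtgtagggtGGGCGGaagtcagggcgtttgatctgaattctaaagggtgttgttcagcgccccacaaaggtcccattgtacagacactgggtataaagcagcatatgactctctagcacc
The Gjb2 window held 18 CG dinucleotides, 2 GC boxes and 1 E-box, and 21.7% of all 32851 RefSeq promoters of that length held as many CG. The distal Gjb1 window held 2 CG and neither motif (81.2% of promoters held as many CG), and the proximal window held 10 CG, 3 GC boxes and 1 E-box (37.8%). Over all promoters 32.7% held a GC box, 17.2% held the E-box and the median was 6 CG. A match describes letters only and is no evidence of binding.

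Gja4, a connexin known from oocytes and endothelium, read 1.79, 1.88, 2.75 and 2.01 FPKM in the controls and 2.75, 3.82, 3.32 and 2.50 in the knockouts. Its 1.47-fold rise came with overlapping groups (log2 change 0.40, limma adjusted p = 0.0473) and ended when control replicate 1, 2 or 4, or knockout replicate 1, 2 or 3, was left out (adjusted p from 0.0536 to 0.120). Gjc1 read 56.6, 60.3, 54.6 and 58.0 FPKM against 52.5, 63.2, 62.7 and 63.9 and was not called (log2 change 0.07, limma adjusted p = 0.519). It was the highest connexin in every library, with 82.6% to 90.1% of the summed connexin FPKM in the controls and 84.3% to 88.7% in knockout libraries.

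Gja1, the main connexin of Sertoli cells, varied widely within the groups. It read 4.40, 0.784, 1.17 and 1.68 FPKM in the controls and 5.24, 1.32, 6.27 and 5.56 in the knockouts, so that a high control and a low knockout overlapped the other group. It was not called (log2 change 0.91, SE 0.42, limma adjusted p = 0.121), but was without control replicate 1 (adjusted p = 0.0412) or without knockout replicate 2 (adjusted p = 0.0122). The Sertoli list without its 2 called genes, Ctsl and Krt18 (11 genes), summed to 76.2, 24.5, 25.9 and 32.9 FPKM in the controls and 71.4, 33.1, 94.3 and 86.2 in the knockouts. Within each group its libraries stood in the same order as those of Gja1. In these bulk samples fewer cells of a type and less RNA per cell cannot be told apart.

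**Figure D4:**
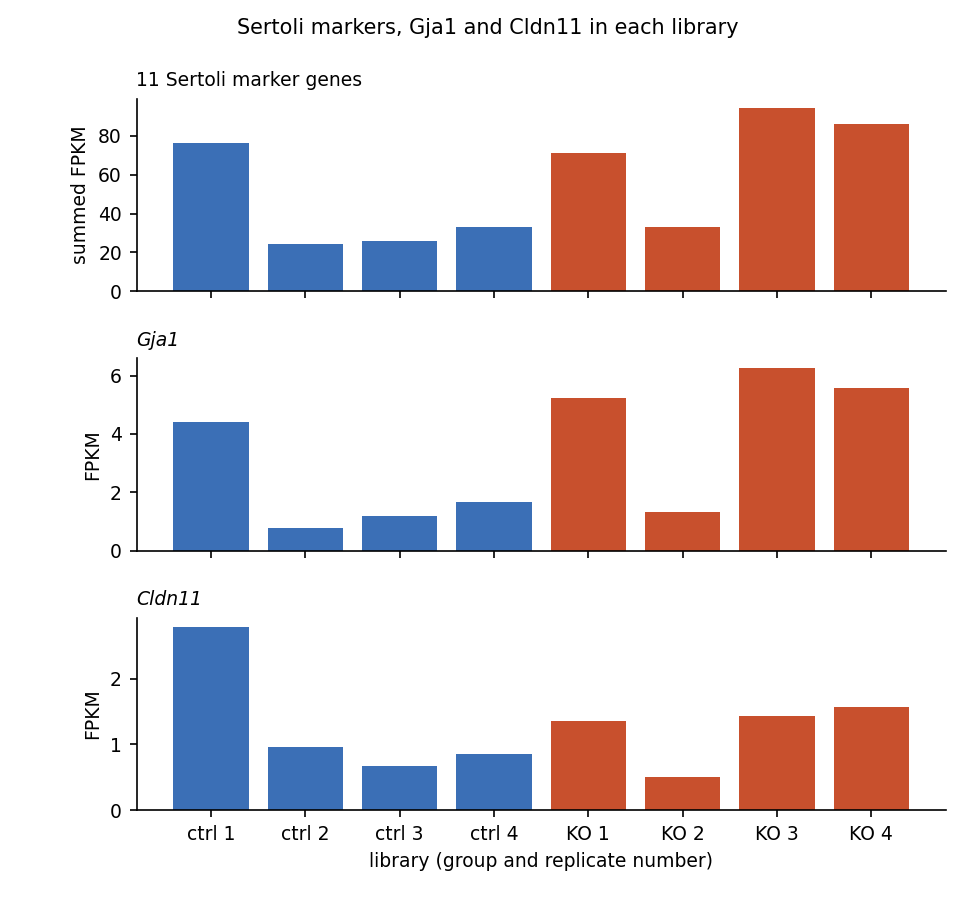
Summed FPKM of 11 Sertoli marker genes (top) and FPKM of Gja1 (middle) and Cldn11 (bottom) in each library; bars start at 0, blue for control and orange for knockout. Control replicate 1 is the highest control and knockout replicate 2 the lowest knockout in all 3 panels.

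No claudin proper was called. Cldn11, the claudin of the Sertoli cell barrier, read 2.79, 0.958, 0.667 and 0.854 FPKM in the controls and 1.36, 0.508, 1.43 and 1.58 in the knockouts (log2 change -0.01, limma adjusted p = 0.979). Control replicate 1 was again the highest control and knockout replicate 2 the lowest knockout, the libraries at the same ends of the Sertoli list. Cldn12, the highest claudin, held 19.6 ± 0.856 FPKM in the controls and 17.4 ± 2.23 in the knockouts (SD, n = 4; log2 change -0.17, limma adjusted p = 0.211). Cldn3 held 2.45 ± 0.200 and 2.34 ± 0.349 FPKM (SD, n = 4; log2 change -0.05, limma adjusted p = 0.711). Cldn25, the claudin domain gene, read 15.5, 13.4, 15.4 and 15.9 FPKM against 24.3, 17.1, 20.3 and 21.6 and rose 1.38-fold without overlap (log2 change 0.44, SE 0.11, limma adjusted p = 0.0128). With small RNAs removed and the rest rescaled, that call was lost (adjusted p = 0.222), as it was with median-ratio scaling (adjusted p = 0.0561).

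The other 38 members had means of 0.103 to 0.963 FPKM, with a median of 0.264. In a limma fit with no minimum, where 26.4% of 17589 genes rose and 11.4% fell, 25 of all 71 members rose, 8 fell and 38 were not called. Of the 38 low members, 8 rose and 4 fell. The rises were Cdh10, Cdh20, Gja5, Gja6, Itga4, Itga10, Pcdh15 and Pcdh17, and the falls were Cdh13, Cldn6, Gjb6 and Pkp1, all listed with their values known. Cdh10 went from 0.0712 ± 0.063 to 1.12 ± 0.301 FPKM (SD, n = 4).

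Genes that work with these proteins were taken from 5 lists chosen by function. Of their 69 tested members, 17 rose, 17 fell and 35 were not called, so that rises were near the share of all genes (25.3%) and falls were above it (12.1%). The split was 12 and 22 with median-ratio scaling, 8 and 23 with quantile normalization, 9 and 17 after small RNAs were taken out, and 41 and 1 when library totals were made equal. Among 24 integrin adhesion genes, 6 rose and 6 fell. Of the rises, picked out with their values known, Parvb, a parvin, went from 11.8 ± 3.43 to 35.6 ± 15.7 FPKM and Sharpin from 10.3 ± 1.37 to 21.4 ± 5.05 (SD, n = 4; limma adjusted p = 0.00454 and 0.00115), both without overlap. Among the falls, Actn1, an actin crosslinker, went from 11.7 ± 1.23 to 5.78 ± 0.158 FPKM, and Pxn, or paxillin, from 26.5 ± 0.142 to 15.9 ± 1.07 (SD, n = 4). The kinase gene Src went from 15.6 ± 0.993 to 9.20 ± 0.684 FPKM (SD, n = 4). For these 3 genes the limma adjusted p ran from 9.51e-05 to 0.000254, and the groups did not overlap. With equal FPKM totals none of the 3 was called, with log2 changes of -0.26 for Actn1, -0.015 for Pxn and -0.036 for Src (adjusted p = 0.357, 0.958 and 0.902). The adhesion genes' median log2 change was -0.04, beside 0.61 for the 11 integrin chains. Those chains include Itga1, Itgal, Itga2b and Itga9, which had a group mean under 1 FPKM and had to differ, so nothing is read from the contrast.

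Of 20 adherens and nectin genes, 5 rose and 6 fell, where 25.3% and 12.1% of all genes did. Jup, or plakoglobin, which binds cadherin tails in both adherens junctions and desmosomes, fell from 7.71 ± 0.930 to 3.62 ± 0.585 FPKM (SD, n = 4; log2 change -0.92, limma adjusted p = 0.000409), and was not called with equal FPKM totals (-0.31, adjusted p = 0.247). Cadm1, an adhesion molecule of spermatogenic cells, fell from 54.2 ± 1.61 to 41.9 ± 1.82 FPKM (SD, n = 4; limma adjusted p = 0.00242). Clstn3, a calsyntenin, rose from 1.11 ± 0.124 to 5.20 ± 0.976 FPKM and Pvrl3, a nectin, from 13.1 ± 0.342 to 22.5 ± 0.869 (SD, n = 4; limma adjusted p = 3.46e-05 and 5.52e-05).

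Of 20 tight junction genes, 6 rose, near the 25.3% of all genes, and 1 fell. Pard3, a polarity protein, rose from 5.10 ± 0.789 to 8.70 ± 0.574 FPKM, Cgnl1 from 5.00 ± 0.447 to 10.2 ± 2.30, Jam3 from 22.3 ± 0.685 to 30.1 ± 1.85 and Magi1 from 5.36 ± 0.479 to 7.74 ± 0.533 (SD, n = 4; limma adjusted p from 0.00134 to 0.00402). After small RNAs were taken out, Jam3 and Magi1 were not called (adjusted p = 0.0645 and 0.128), nor was Magi1 in its most abundant entry (log2 change 0.13, adjusted p = 0.516). Of the 2 desmosome plaque genes tested, Evpl, or envoplakin, fell from 3.66 ± 1.22 to 1.21 ± 0.201 FPKM (SD, n = 4; limma adjusted p = 0.00223). The gap junction list had 6 names, of which 3 were tested, and Tjap1, a tight junction-associated protein by its name, does not belong to gap junctions. The pannexin gene Panx1 fell from 16.2 ± 2.15 to 10.9 ± 1.08 FPKM without overlap (SD, n = 4; limma adjusted p = 0.00487). Its most abundant entry was lower too but not called (log2 change -0.34, limma adjusted p = 0.0589). Panx2 went from 1.75 ± 0.155 to 1.20 ± 0.270 FPKM and Tjap1 from 30.4 ± 2.61 to 24.4 ± 2.24 (SD, n = 4; limma adjusted p = 0.044 and 0.0278), both with overlapping groups. Panx2 lost its call without control replicate 1, 3 or 4 or knockout replicate 1, 3 or 4 (adjusted p from 0.0779 to 0.105). Tjap1 lost it without control replicate 3 or 4 or knockout replicate 1, 3 or 4 (adjusted p from 0.0635 to 0.0827). With libraries scaled to equal FPKM totals the changes of Panx1, Panx2, Tjap1 and Cadm1 turned positive and were not called.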

How the data were processed

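Libraries of sorted spermatogonia (4 control, 4 knockout) were grouped by label. The authors deposited FPKM for 45550 transcript entries, made with TopHat, Bowtie, Cufflinks and Cuffdiff on mm10, per the submitters' processing notes, with versions and filters not given in the sources used here. Entries were summed by gene identifier, and positions came from GENCODE M21 (17257 of 17589 genes found). Genes averaging 1 FPKM or more were tested on log2(FPKM + 1) with limma 3.58.1 in R 4.3.3 (intensity trend, group only, two-sided), with calls below 0.05 after Benjamini-Hochberg adjustment and checked on simulated data. This scale understates changes of low genes; folds are ratios of mean FPKM. Depth was inferred from single-entry genes, where 72.0% to 81.9% of low values were whole fragment counts to within 0.1 (20% by chance). Named were Kdm1a, all called members, up to 4 members of highest FPKM per type, those nearest the minimum and up to 4 called genes per list; 1 such gene is not reported here. Members and lists were chosen with earlier results of these data known. Alternatives varied the pseudocount, minimum, scaling, entries and libraries; single-entry tests were added after seeing the data.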

Additional observations from a re-analysis of the deposited data

Results flagged for a closer look

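Within groups of 4 libraries, 100 groups were checked for a value far from the other 3, and 9 had one; chance alone marks about 1 in 20 groups. Knockout replicate 2 was far above the other knockouts for Itgav (9.79 FPKM, others 5.50 to 5.95) and below them for Pcdhgc4 (11.8, others 12.8). Knockout replicate 1 was low for Gjc1 (52.5 FPKM, others 62.7 to 63.9) and for Itga7 (3.97, others 4.73 to 4.79). Knockout replicate 3 was high for Cdh17 (4.48 FPKM, others 4.13 to 4.18). Control replicate 1 was high for Itga7 (3.98 FPKM, others 3.33 to 3.38) and for Cldn11 (2.79, others 0.667 to 0.958). Control replicate 3 was high for Itga1 (1.31 FPKM, others 0.622 to 0.657) and for Kdm1a (92.0, others 48.1 to 54.0).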

How the results depend on the processing

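Relative to the median of all genes, the members' median log2 change was 0.30 higher as deposited, and 0.32 with median-ratio scaling, 0.22 with quantile normalization, 0.32 with small RNAs removed and 0.15 with equal FPKM totals, which moved the median of all genes from 0.09 to 0.74. The members' medians include the 9 members with a group mean under 1 FPKM, which had to differ. A minimum mean of 5 FPKM left 7 of the 21 called members to test, of which 7 rose and 0 fell, and left 2164 rises among all genes and 11 among the partners. Removing small RNAs gave 2241 rises among all genes and 9 among the partners, and quantile normalization gave 2648 falls among all genes and 8 rises among the partners. Equal totals, in which Mir5105 is counted, gave 9549 rises and 151 falls among all genes, and 41 rises and 1 fall among the partners. There Cadm1 (0.34, adjusted p = 0.205), Panx1 (0.14, 0.619), Panx2 (0.10, 0.671) and Tjap1 (0.39, 0.148) had log2 changes of the opposite sign. For Gjb1, using its most abundant entry gave -0.10 (adjusted p = 0.718). Leaving out each library in turn gave 13 to 16 rises and 4 to 5 falls among the members, and 11 to 19 rises and 14 to 19 falls among the partners, with the 11 without knockout replicate 3. With the replicate number as a block, 13 members rose and 3 fell, and Cdh24 (adjusted p = 0.0637), Gjb1 (0.0535), Itga7, Gja4 and Pcdh19 lost their calls; same-numbered libraries did not deviate together (r = 0.22, -0.12, -0.13 and -0.09). Gjb1 also lost its call with quantile normalization (adjusted p = 0.093), where Cdh3 gained one (0.0339). Pcdh19 and Itga2b lost their calls with a pseudocount of 0.1 (adjusted p = 0.0536 and 0.0542), and Itga7, Itga2b, Gja4 and Pcdh19 with median-ratio scaling, with quantile normalization and with small RNAs removed. Panx2 and Tjap1 lost theirs under the block (adjusted p = 0.0898 and 0.0535). The cause of these changes was not tested, and depth limits the precision of the low members.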
